A study of Caenorhabditis elegans with 2 samples.

Results

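The 10 genes described here control sex determination and dosage compensation in Caenorhabditis elegans: xol-1, sdc-1, sdc-2, sdc-3, dpy-21, dpy-26, dpy-27, dpy-28, dpy-30 and her-1. They are 10 of 19973 nuclear protein-coding genes, and 3 of them (xol-1, sdc-1 and sdc-2) lie on the X chromosome. They were chosen by name with earlier results of these data known, among them the score of 1 region upstream of xol-1. All values at these genes are therefore descriptions and none is tested. For each gene, every region was taken whose summit lay in the gene body or within 5000 bp upstream of the gene start.

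The regions come from chromatin immunoprecipitation and sequencing of the zinc finger homeodomain protein ZAG-1, tagged with eGFP, in whole animals at the L3 larval stage. The 2 biological replicates form the only group. Both are strain OP83, with the genotype unc-119(ed3) III; wgIs83, where the wgIs83 transgene carries the tagged zag-1. Animals of both sexes were pooled in each, so signal from different tissues or sexes cannot be told apart, and the region files hold no expression by which stage or tissue could be checked. The labels give a library size range of 150 to 350. Regions were used from 4 lists. These were the authors' optimal set, a joint list of both replicates, and the lists of replicate 1 and replicate 2. The lists of replicate 1 and replicate 2 held 30000 and 26202 regions. The joint and replicate lists include background regions on purpose. The optimal set held the regions of highest score in the joint list. No library of another factor was analysed here, and the number of reads behind a score is unknown.

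In this pathway the X chromosome dose is read in the early embryo through xol-1, the switch gene. Where xol-1 is high, as in XO animals, male fate follows. Where it is low, as in XX animals, SDC-2 with SDC-3 brings a condensin-like dosage compensation complex to recruitment elements on the X chromosomes, whose expression is then lowered, and the SDC proteins repress her-1. Recruitment elements on X carry a motif whose core includes the word CGCGCAGGG. ZAG-1, the worm homolog of the vertebrate ZEB proteins, is best known from neurons.

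Sequence is shown for the summits of the optimal regions at xol-1 and dpy-28, for the promoter region of dpy-30, and, as a second X-linked gene without the word, for the region just upstream of sdc-2. All are plus-strand sequence of WBcel235 from RefSeq, in the reading direction of the named genes. The dpy-28 stretch is the 200 bp that end just before the start of the neighbouring gene tasp-1. It holds the summit but is not the 201 bp window, centred on the summit, from which words and GC content were taken. Capitals mark matches, on either strand, to any of 4 words. These are CGCGCAGGG from the recruitment element motif, the repeat GAGAGA, the word GACGCA, and CACCTG, the word bound by vertebrate ZEB proteins.
xol-1, chrX:8036344-8036544: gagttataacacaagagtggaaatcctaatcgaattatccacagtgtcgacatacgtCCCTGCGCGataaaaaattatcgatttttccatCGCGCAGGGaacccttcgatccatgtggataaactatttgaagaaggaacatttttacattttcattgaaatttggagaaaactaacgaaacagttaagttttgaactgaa
dpy-28, chrIII:10759107-10759306: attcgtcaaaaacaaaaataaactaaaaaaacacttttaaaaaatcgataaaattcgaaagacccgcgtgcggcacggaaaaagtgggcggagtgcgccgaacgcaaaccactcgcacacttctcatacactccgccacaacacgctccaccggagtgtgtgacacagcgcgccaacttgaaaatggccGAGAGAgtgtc
dpy-30, chrV:12191054-12191254: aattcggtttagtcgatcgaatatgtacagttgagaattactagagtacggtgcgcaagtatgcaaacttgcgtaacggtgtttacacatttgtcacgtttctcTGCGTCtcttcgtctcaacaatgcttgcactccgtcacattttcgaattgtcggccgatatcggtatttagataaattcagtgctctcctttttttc
sdc-2, chrX:11522343-11522543: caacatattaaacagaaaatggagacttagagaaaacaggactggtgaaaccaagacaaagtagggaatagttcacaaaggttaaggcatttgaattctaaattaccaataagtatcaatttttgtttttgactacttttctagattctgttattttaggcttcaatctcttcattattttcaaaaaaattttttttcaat

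Of the 10 genes, xol-1 and dpy-28 had an optimal region, 1 each. Over all protein-coding genes, 3.03% had one by the same window. Windows of the 10 genes were longer than usual, with a median of 11717 bp against 7027 bp over all genes. Both regions lay upstream of the gene, 4869 bp from the start of xol-1 and 3861 bp from that of dpy-28. In the joint list 6 of the 10 genes had at least 1 region, where 48% of all genes did, and they had 14 regions in all. In the 2 replicate lists every one of the 10 genes had a region, where 85.4% of all genes did for replicate 1 and 81.1% for replicate 2. These long lists therefore say little of a gene unless the region ranks high or recurs.

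**Figure D1:**
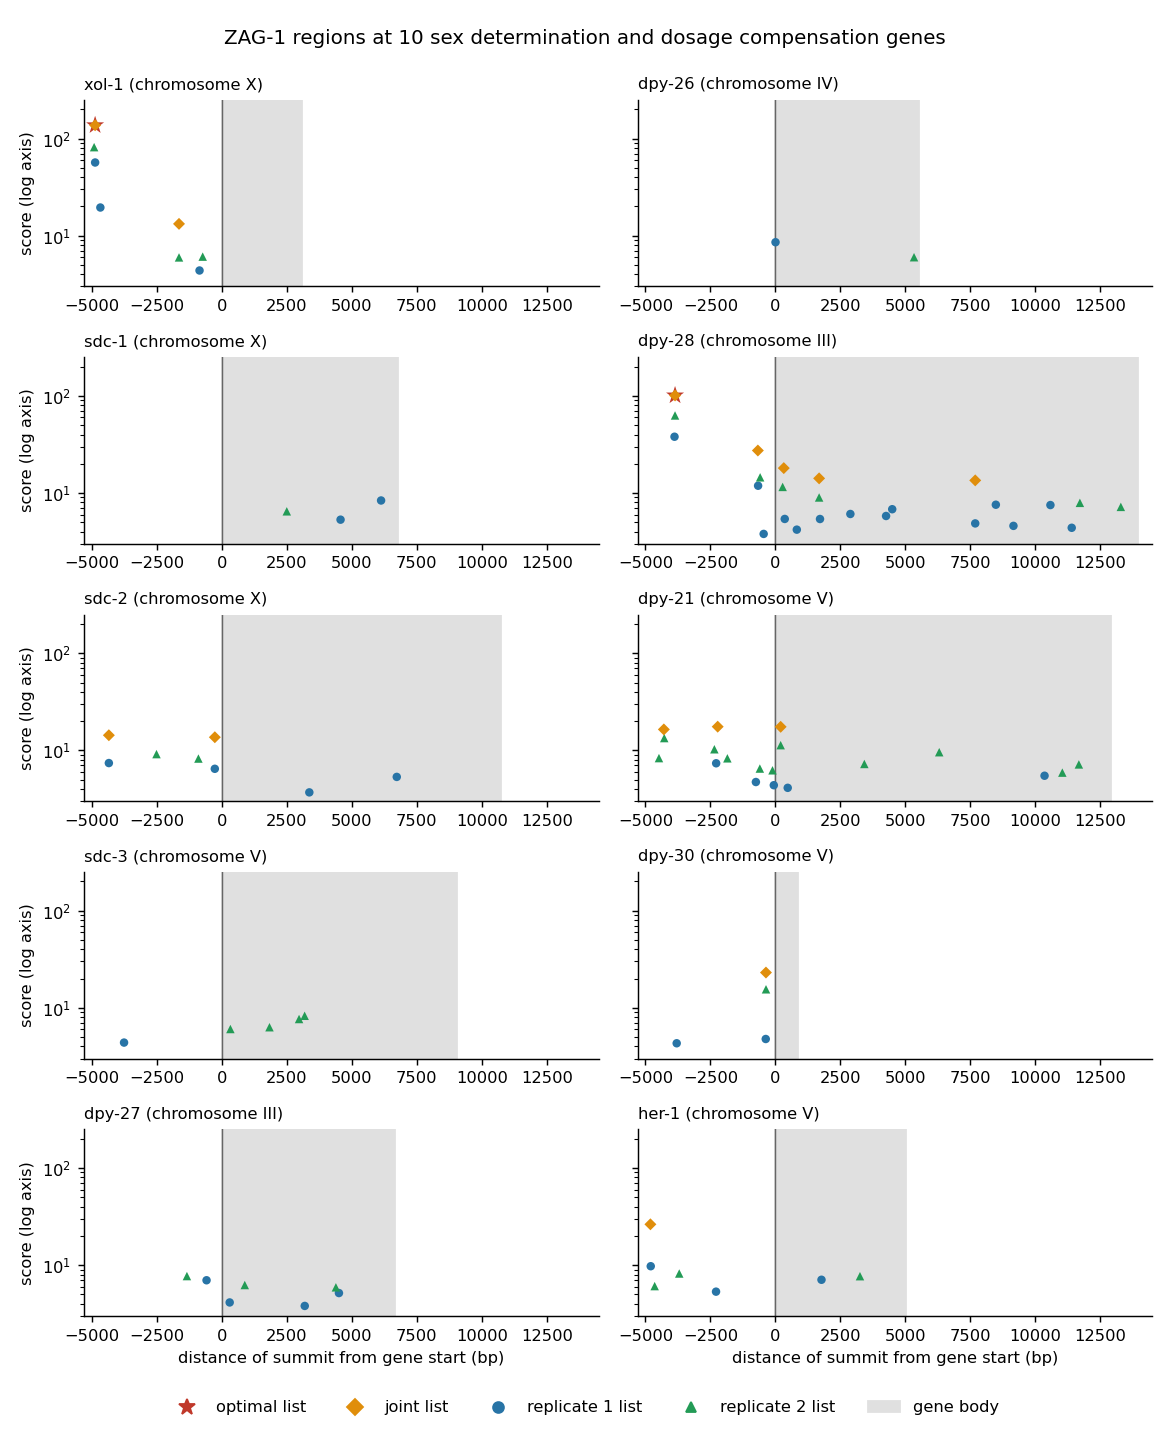
Regions at each of the 10 genes, by the distance of the summit from the gene start (x axis, bp, negative upstream) and the authors' score (y axis, log scale, not comparable between lists). Stars, diamonds, circles and triangles are the optimal, joint, replicate 1 and replicate 2 lists, and the grey band is the gene body. The scores of 136.9 at xol-1 and 101.03 at dpy-28 stand far upstream of the gene starts, and all other joint regions score 27.4 or less.

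The region at xol-1 was the strongest of the 10 genes. The gene (WBGene00006962, X positions 8041313 to 8044409, plus strand) had its optimal region at X positions 8036252 to 8036635, in intergenic sequence. Its score, the authors' signal value for the region set against a control, was 136.9, at rank 19 of the optimal set. Of the 25 highest optimal regions 11 lay on the mitochondrial genome, and among the 339 nuclear regions xol-1 ranked 10. Replicate 1 gave the site a score of 56.6 and replicate 2 a score of 81.5, and both placed it at rank 22 of their own lists. The summits of the replicates lay 1 bp and 38 bp from the joint summit, so the site was found in both libraries at nearly the same place.

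The distance of 4869 bp is just inside the 5000 bp limit. On the right xol-1 was the nearest protein-coding gene, and on the left C34D10.1 ended 4830 bp from the summit. Noncoding genes were nearer, with the noncoding RNA gene C18A11.13 at 230 bp and a tRNA gene that overlaps it at 241 bp. Replicate 1 listed a further region here, with its summit 4667 bp upstream of xol-1, a score of 19.5 and rank 154. Replicate 2 listed none there. Which of these genes, if any, the site acts on was not tested.

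The other xol-1 regions were low. The joint list held a region 1642 bp upstream with a score of 13.2, at rank 7610. Only replicate 2 had it, at a score of 5.96. Within the gene body of xol-1 no list held a summit.

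The recruitment element word stood at the xol-1 summit in a pair of matches facing opposite ways. CGCGCAGGG was on the minus strand at X positions 8036401 to 8036409 and on the plus strand at 8036434 to 8036442, with 24 bases between them. The second match ended 2 bp before the summit. None of the other 13 regions that the joint list held at the 10 genes had the word within 100 bp of the summit. A match is a sequence description only, and occupancy by the dosage compensation complex was not measured here.

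The word set the xol-1 region beside a small number of other X regions. CGCGCAGGG lay within 100 bp of the summit in 9 optimal regions, or 2.52% of the set, and in 0.130% of the joint list. All 9 were among the 87 optimal regions on X, and 0 of 252 autosomal regions had it. Their scores ran from 83.8 to 212 with a median of 149.9, and xol-1 was the sixth highest of them. The other 78 X regions ran from 33.1 to 174 with a median of 41.7. Among the 9 X regions within the 25 highest of the optimal set, 6 had the word. Since the word was looked for with the xol-1 score known, and these regions share libraries and a chromosome, no test is given.

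**Figure D2:**
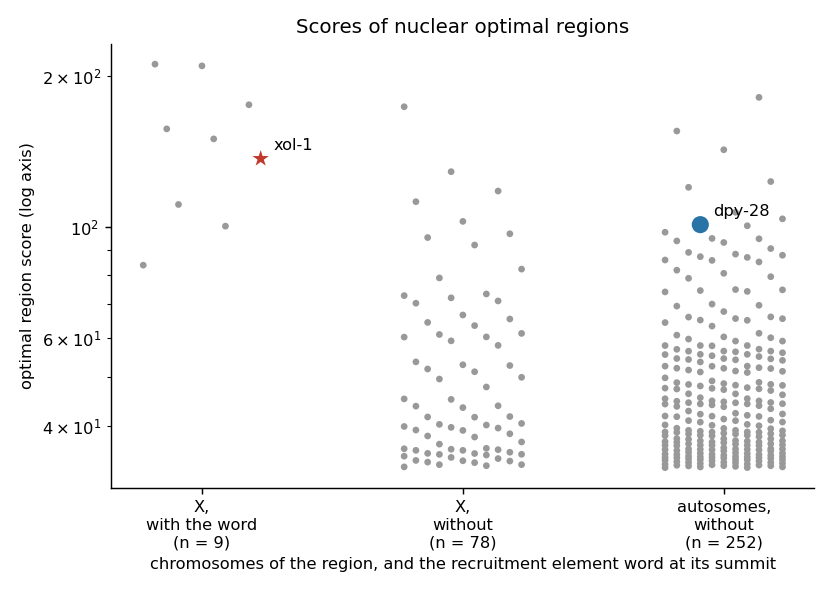
Scores (y axis, log scale) of the 339 nuclear optimal regions, 1 point each, for X regions with CGCGCAGGG within 100 bp of the summit, X regions without it, and autosomal regions, none of which had it. The star is the xol-1 region and the large circle the dpy-28 region; the points with the word all lie at 83.8 or above.

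In the genome the word was rare. It occurred 33 times on X (1.86 per Mb) and 44 times on the autosomes (0.533 per Mb). Of the X occurrences 12 lay within 100 bp of an optimal summit, the xol-1 pair among them, and of the autosomal ones 0 did. Of the 33 X occurrences, 14 lay that near to a joint summit, 15 to a replicate 1 summit and 15 to a replicate 2 summit. For the 44 autosomal occurrences these counts were 2, 2 and 3.

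Like the xol-1 site, those near gtr-1 and W02H3.3 held 2 matches, but there both were on 1 strand. The gtr-1 region scored 110.8 and lay 3898 bp from that gene's start, and the W02H3.3 region scored 212 and lay 3970 bp from its start. The xol-1 site was the only optimal region with matches on both strands.

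The 4 genes most like xol-1 in their ranks were ZK899.5, C06A1.7, cdc-48.1 and C17C3.24. Likeness was the distance between log10 ranks of the highest region in the joint, replicate 1 and replicate 2 lists, over 8846 other genes with a region in all 3. ZK899.5, on X, was the nearest, at a log10 rank distance of 0.0731. The region in its window ranked 21, 23 and 25 in the 3 lists, had no match to the word and was nearest to the start of ZK899.6. C06A1.7 and cdc-48.1, on chromosome II, share 1 region between them, which was nearest to the start of cdc-48.1. The region in the window of C17C3.24 was nearest to the start of ins-13.

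**Figure D3:**
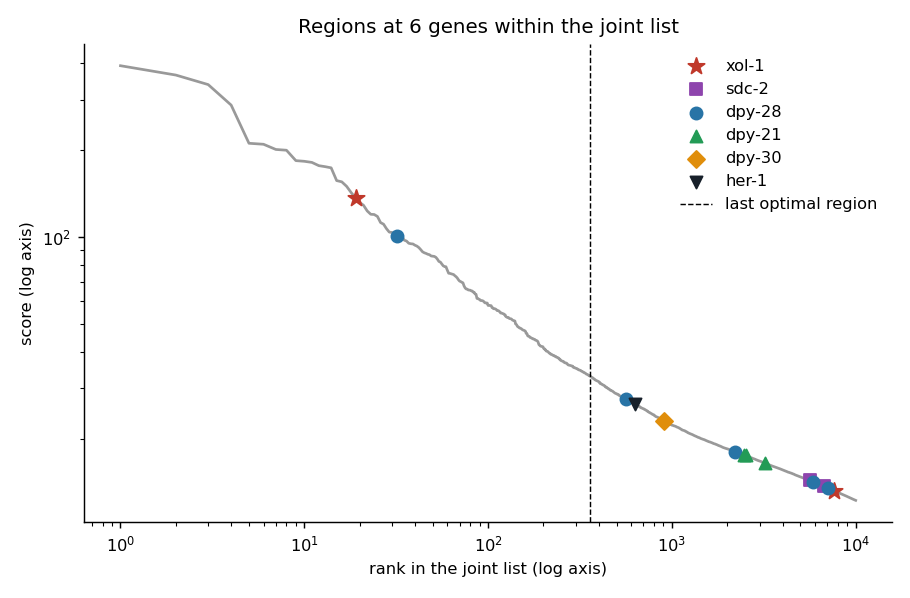
Score against rank in the joint list (both log axes). The grey line is all regions of the list, symbols are the 14 regions at the 6 genes that had one, and the dashed line is the rank of the last optimal region. One region each of xol-1 and dpy-28 lies left of the line, and the other 12 lie right of it.

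The SDC genes, which direct the complex to X and repress her-1, had only low regions. sdc-2 (X positions 11522707 to 11533450), the X-specific targeting factor, had 2 joint regions. One lay 264 bp upstream, in the sequence printed above, with a joint score of 13.7 at rank 6753. In replicate 1 it scored 6.46, and replicate 2 had no summit within 100 bp. The other, with a joint score of 14.3, lay 4340 bp upstream in a coding exon of hpo-34, 13 bp from the start of 1 of that gene's transcripts, and was also seen in replicate 1 alone.

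sdc-1 (X positions 16275763 to 16282534) and sdc-3 (chromosome V positions 15039148 to 15048207), which encode zinc finger proteins, had no joint region. The highest regions at sdc-1 scored 8.37 in replicate 1 and 6.47 in replicate 2, at different places in the gene body. Those at sdc-3 scored 4.38 in replicate 1, upstream, and 8.26 in replicate 2, in the gene body. At neither gene did a region recur between the replicates. The optimal summits nearest to the 2 genes lay 65885 bp from the start of sdc-1 and 23233 bp from that of sdc-3.

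Among the condensin genes of the complex, dpy-28 stood apart from dpy-26 and dpy-27. DPY-28 is its CAP-D-type subunit, DPY-26 its kleisin and DPY-27 its SMC4-type subunit. dpy-28 (chromosome III positions 10763131 to 10777076) had an optimal region at positions 10759078 to 10759461 with a score of 101.03, at rank 32 of the optimal set and rank 20 of its nuclear regions. It scored 38.0 in replicate 1 and 62.9 in replicate 2, at rank 36 of both lists. The replicates placed the summit 21 bp and 1 bp from the joint summit.

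The optimal region at dpy-28 lay nearer to other genes. Its summit lay 3861 bp upstream of dpy-28 but 37 bp upstream of the start of tasp-1, the neighbour on the same strand, and it was intergenic. On the other side K01G5.10 and rnf-113, both on the minus strand, lay 748 bp and 1630 bp from the summit. The summit window had 1 GAGAGA and no CGCGCAGGG. GAGAGA lay in 51.8% of optimal summit windows, so this match is common. GC content of the window was 56.2% at dpy-28 and 36.3% at xol-1, against 45.2% ± 9.03 (SD over all windows of the optimal set, mitochondrial ones included). Optimal windows on X alone had 47.6% ± 7.35 and autosomal ones 46.1% ± 7.37 (SD).

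Closer to dpy-28 lay a region outside the optimal set. It was 676 bp upstream of dpy-28, in an intron of tasp-1, with a joint score of 27.4 at rank 560, where the lowest optimal score was 33.002 and the next region of the joint list had 32.9. Replicate 1 gave it 11.9 at rank 754 and replicate 2 gave it 14.5 at rank 1298. In the introns of dpy-28 the joint list held 3 further regions, with scores of 18.04, 14.1 and 13.5. The first was scored 5.40 and 11.5 in replicates 1 and 2, the second 5.39 and 8.99, and the third 4.86 in replicate 1 alone. In the replicate lists dpy-28 had 14 regions in replicate 1 and 6 in replicate 2, the widest gap of the 10 genes. With 5 joint regions dpy-28 had 2.64 per 10 kb of its window, against 0.996 per 10 kb of the nuclear genome. xol-1 had 2.47 by the same measure. For dpy-28 the density was 7.39 against 2.99 in replicate 1, and 3.17 against 2.61 in replicate 2.

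dpy-27 (chromosome III positions 3813018 to 3819679) and dpy-26 (chromosome IV positions 12445801 to 12451335) had no joint region. At dpy-27 the highest scores were 6.98 in replicate 1 and 7.71 in replicate 2. At dpy-26 they were 8.54 in replicate 1, 3 bp inside the gene start, and 5.99 in replicate 2, near the far end of the gene. For both genes the highest sites of the replicates lay apart. The nearest optimal summit was 18167 bp from the start of dpy-27 and 641431 bp from that of dpy-26.

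The other members of the complex had joint regions below the optimal set. DPY-21 is a histone H4 lysine demethylase, and DPY-30 is a subunit shared with the COMPASS histone methyltransferase complexes. dpy-30 (chromosome V positions 12191519 to 12192385) had 1 joint region, 365 bp upstream, with a score of 23.05 at rank 911. Both replicates had it, within 8 bp and 2 bp of the joint summit. Its score was 4.77 in replicate 1, at rank 18469 of 30000, and 15.5 in replicate 2, at rank 995 of 26202. The replicates thus shared the place and not the rank. The window held 1 GACGCA on the minus strand, 4 to 9 bp past the summit, a word found in 30.3% of optimal windows and 6.85% of joint ones.

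dpy-21 (chromosome V positions 17936282 to 17949193) had 3 joint regions with scores of 17.5, 17.5 and 16.4, none with a summit of both replicates within 100 bp of its own. One lay 201 bp inside the gene, in an intron, with a score of 11.3 in replicate 2 and no summit within 100 bp in replicate 1. The window of this region had the only CACCTG of the 14 joint regions. That word lay in 2.24% of optimal windows and 3.99% of joint ones, so 1 of 14 is not read as a trait of these genes. The other dpy-21 regions lay 2221 and 4292 bp upstream, nearer to the start of Y59A8B.24 than to that of dpy-21. Near the first of them replicate 1 had a region with a score of 7.36 at rank 5485 and replicate 2 one with a score of 10.3 at rank 5163. Their summits lay 69 bp apart, but that of replicate 2 was over 100 bp from the joint summit, so the site had a region in both libraries. The second scored 13.4 in replicate 2 and had no summit within 100 bp in replicate 1. At this gene replicate 2 listed 11 regions and replicate 1 listed 5.

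her-1, the target repressed by the SDC proteins, encodes a secreted protein that promotes male fate. The gene (chromosome V positions 9697015 to 9702035) had 1 joint region, 4809 bp upstream, with a score of 26.3 at rank 630. It lay 47 bp upstream of the start of ztf-9, on the opposite strand. Replicate 1 gave it 9.75 at rank 1783. Replicate 2 had no summit within 100 bp and its nearest one, 4645 bp upstream of her-1, scored 6.08. No joint region lay in her-1 itself.

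**Figure D4:**
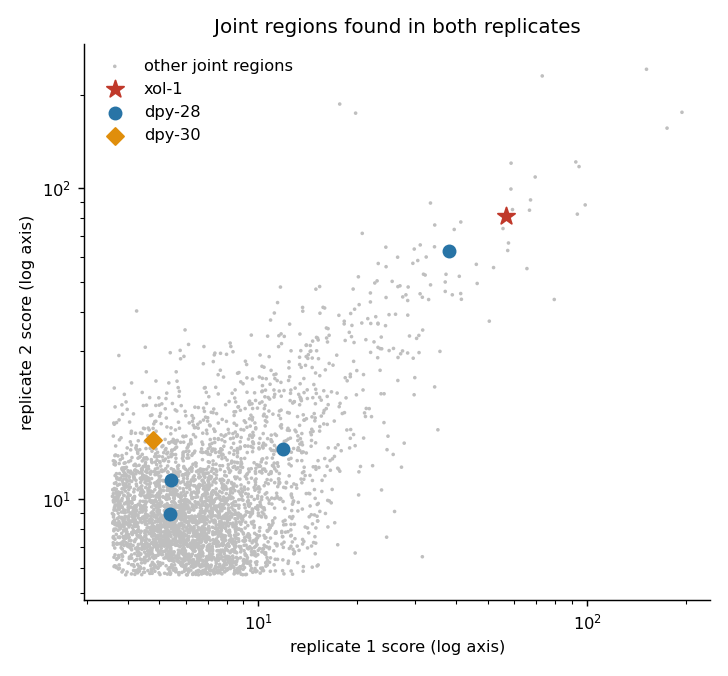
Replicate 1 score (x axis) against replicate 2 score (y axis), both log axes, for the 3536 joint regions with a summit within 100 bp in both replicates. Grey points are other regions and symbols are the 6 at xol-1, dpy-28 and dpy-30. The optimal regions of xol-1 (56.6 and 81.5) and dpy-28 (38.0 and 62.9) lie at the upper right, and the dpy-30 point (4.77 and 15.5) lies in the bulk of replicate 1.

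Agreement between the replicates was as follows. Both optimal regions were found in both replicates, as were 87.4% of all optimal regions. The optimal set was the top of the joint list by score, and its regions were not each required to have a summit in both replicates. The joint score draws on both libraries, so this share is not an independent check. Of the 14 joint regions 6 were found in both, 4 at dpy-28 and 1 each at xol-1 and dpy-30, against 35.3% of the joint list. With each replicate list shortened to the length of the joint list, the number was 3. These were the optimal regions of xol-1 and dpy-28 and the region 676 bp upstream of dpy-28.

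The X-linked and autosomal genes of the pathway were then set side by side. An optimal region was present at 1 of 3 X-linked genes and at 1 of 7 autosomal ones, where 3.66% of all X genes and 2.93% of all autosomal genes had one. A joint region was present at 2 of 3 and at 4 of 7, where 50.9% of X genes and 47.6% of autosomal genes had one. The density of joint regions was 1.12 per 10 kb of window in either group, with 4 regions in 35613 bp on X and 10 in 89003 bp on autosomes. In replicate 1 it was 2.53 on X and 3.37 on autosomes, and in replicate 2 it was 1.68 and 3.26. The groups of 3 and 7 genes are too small for these shares to show a difference.

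Scores overlapped between the groups. The highest joint scores of the 2 X-linked genes with a region were 136.9 at xol-1 and 14.3 at sdc-2. Those of the 4 autosomal genes were 101.03, 26.3, 23.05 and 17.5. Of the joint regions 4 of 4 on X and 6 of 10 on autosomes were upstream of the gene start. In replicate 1 these counts were 5 of 9 and 12 of 30, and in replicate 2 they were 5 of 6 and 12 of 29, too few for a difference in share to be read. In all, 10 of 14 joint regions (71.4%) were upstream, where upstream sequence made up 40.1% of the windows. In replicate 1 the share was 43.6% of 39 regions and in replicate 2 it was 48.6% of 35. The upstream share over the regions of all genes was not computed, so the joint share is not read as a trait of these genes. For 9 of the 14 joint regions the nearest protein-coding start was that of the gene itself.

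Other genes of the pathway, from a list of 41 symbols of which 40 matched a gene, had an optimal region in 2 cases. This was 5%, against 3.03% of all genes, and 23 of the 40 (57.5%) had a joint region, against 48% of all genes. set-4, an H4K20 methyltransferase gene, had an optimal region 335 bp upstream with a score of 37.02. It scored 19.5 in replicate 1 and 16.1 in replicate 2. set-16, a gene of a COMPASS-type methyltransferase, had an optimal region 187 bp upstream with a score of 74.6, or 28.5 in replicate 1 and 43.6 in replicate 2. Its nearest start, at 159 bp, was that of drr-2.

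Among the X signal elements, which repress xol-1, fox-1 and ceh-39 had joint regions and sex-1 had none, and of the autosomal signal elements that raise xol-1, sea-2 had them, the highest at 22.03. In the sex determination pathway below her-1, 4 of 6 genes had a joint region, led by tra-1, the terminal zinc finger regulator, at 22.7. That region had a score of 20.6 in replicate 2 and no summit within 100 bp in replicate 1. Of the COMPASS genes 4 of 7 had a joint region, with ash-2 next after set-16 at 23.2. A joint region was also present at 2 of 6 genes of the other condensins, 5 of 9 of germline sex determination and 3 of 5 sex-specific targets. In lists of this size such counts cannot be told from the 48% of all genes with a joint region. Of the 5 X-linked genes of this list 0 had an optimal region, where 3.66% of all X genes had one, so a count of 0 does not set xol-1 apart from them.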

How the data were processed

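Regions were deposited by the authors as lists in the ce11 build, which is the WBcel235 assembly. Per the notes deposited with the samples, a replicate list derives from 1 alignment plus a control, the joint list of 10005 regions from both alignments plus that control. The 3 lists together gave the optimal set of 357 regions through the irreproducible discovery rate (IDR). Which aligner, caller and threshold were used is not given in the sources used here. Values are the authors' signal score for each region, which is not scaled between lists, and a deposited −log10 q-value, equal at 1.38 for all optimal regions and not used to rank. A further deposited column gives the summit as an offset. The ce10 lists and control reads were not analysed here. Depth is unknown, so no interval is given for a score.

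Gene models were those of Ensembl release 115. A region belonged to every gene whose body or 5000 bp upstream held its summit, and was found in a replicate when summits lay within 100 bp. Either strand was searched for the words in windows of 201 bp centred on summits, with overlapping matches counted apart. The nearest start was taken over the transcripts of protein-coding genes. Python 3.11.15 and matplotlib 3.10.9 were used. Placement of regions in windows was tested on simulated data. The genes, lists and words were chosen with earlier results of these data known. All 10 genes were named, with pathway genes that had an optimal region or the 5 highest joint scores, the genes nearest to optimal regions, and the 4 genes most like xol-1 in rank; fox-1, ceh-39, sex-1, genes of word-bearing regions and genes beside joint regions were named after their values were seen.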

Additional observations from a re-analysis of the deposited data

How the results depend on the processing

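The upstream window decided which genes had an optimal region. With 2000 or 1000 bp upstream, 0 of the 10 genes, 0 of the 3 X-linked and 0 of the 7 autosomal ones had an optimal region, and no score at xol-1 could be given, because both regions lie farther out. The share of all genes was then 1.97% and 1.62%. Assigning each region to the nearest start left 1 gene, xol-1, with 0 autosomal genes, 1.52% of all genes and 1 other pathway gene, since the dpy-28 and set-16 regions are nearer to tasp-1 and drr-2. The optimal regions above the median score of the set gave 1.44% of all genes and 1 other pathway gene, as fewer regions enter. With as many of the highest regions of replicate 1 or replicate 2 alone as the optimal set has, the 10 genes gave 2 in either case, again xol-1 and dpy-28, and the other pathway genes gave 1 to 3. With each replicate list shortened to the length of the joint list, 3 of the 14 joint regions were found in both replicates in place of 6, and with the whole lists the number was 5 with summits within 50 bp, 8 within 200 bp and 9 by any overlap of regions. The number of genes with a joint region was 4 to 6 under the settings run. Settings for the word CGCGCAGGG were chosen after seeing the data and gave 8 to 11 X regions and 0 autosomal regions. No paired analysis was possible because there is only 1 group of samples.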
